A study of Mus musculus with 10 samples.

Results

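Integrins and laminins are the receptors and the ligands of the attachment between cells and basement membrane, and 31 of the 53801 genes in the deposited table encode their subunits as chosen here. The choice was by gene symbol alone among protein-coding genes: symbols of the Itga series with a number, Itgb1 to Itgb8, and the laminin chains named Lama, Lamb or Lamc with a number. That gave 20 integrin genes and 11 laminin genes. Integrin subunits whose symbol carries another letter, such as Itgav, are outside this choice and are given only where a result turns on them.

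Poly(A) RNA was measured by bulk sequencing in 10 libraries from the dorsal brain of mouse embryos, 5 labelled NG2 and 5 labelled GFAP. The comparison asks whether cells sorted under those labels differ in expression. All 10 share the wild-type genotype, electroporation in utero at embryonic day 12 with StarTrack, a set of plasmids that tags progenitors and their descendants with reporters, sorting by flow cytometry at embryonic day 14, the label "Neural Stem Cells" and batch 1. The group labels name NG2, a proteoglycan encoded by Cspg4, and GFAP, an intermediate filament of astroglia. The labels do not say whether replicates came from separate embryos or litters, so p-values measure only the spread between these samples.

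An integrin is a pair of 1 alpha and 1 beta chain that spans the cell membrane, and the alpha chain largely sets the ligand. A laminin is a cross-shaped trimer of 1 alpha, 1 beta and 1 gamma chain that polymerises into the sheet of the basement membrane. In the embryonic cortex radial glia, the neural stem cells, anchor their basal endfeet in the basement membrane below the meninges, and laminin is also present at the ventricular surface. Itga6 with Itgb1 is a laminin receptor of these cells.

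Library totals lay between 12945436 and 17569730 reads. In CPM (counts per 1000000 reads of the library after TMM, a scaling between libraries), Cspg4 stood at 6.75 ± 1.47 where NG2 was the label and at 1.07 ± 0.356 where GFAP was (mean ± SD of 5), while Gfap had 6 and 10 reads in all. Library NG2 5 stands apart: it had reads for 18903 genes against 22988 to 24444 in the other libraries, and for 24 of the 31 integrin and laminin genes against 27 to 30. Results that rest on it are given with and without it. Among genes that define the labelled cell type, 10 radial glia markers summed to 1061 to 1745 CPM in NG2 libraries, against 1612 to 2324 CPM in GFAP libraries. Markers of neurons, 8 genes, summed to 5824 to 8509 and 4610 to 5985 CPM, so neuronal transcripts were abundant in every library of both groups. All 8 neuron markers had a positive fold change (median 0.35), beside 7844 of all 16187 tested genes. The sum of 6 intermediate progenitor markers was 1877 to 2070 CPM for NG2 and 2071 to 2364 CPM for GFAP, without overlap. At an unadjusted edgeR p under 0.05, 5 neuron markers were higher in NG2. Lower at that level were 5 of 10 radial glia and 3 of 6 intermediate progenitor markers, beside 12.8% of all tested genes in either direction. The part of these cell types in the results was not tested.

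Promoters of 3 genes are shown because the results turn on them: Lamb2 had the smallest adjusted p of the family, Lamb1 is the other beta chain that can take its place in a trimer, and Itgb1 had the highest level. Each is the RefSeq window (GRCm38.p6) of 250 bases before to 50 bases after the annotated start, on the plus strand, written 5′ to 3′. Capitals mark GGGCGG (the GC box) or CCAAT (the CCAAT box), searched on both strands; neither motif contains the other.

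Lamb2: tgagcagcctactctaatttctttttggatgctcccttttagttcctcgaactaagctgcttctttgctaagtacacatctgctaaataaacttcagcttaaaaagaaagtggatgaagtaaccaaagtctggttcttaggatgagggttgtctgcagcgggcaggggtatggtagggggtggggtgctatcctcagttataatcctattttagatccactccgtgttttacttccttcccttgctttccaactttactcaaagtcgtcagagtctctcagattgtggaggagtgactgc
Lamb1: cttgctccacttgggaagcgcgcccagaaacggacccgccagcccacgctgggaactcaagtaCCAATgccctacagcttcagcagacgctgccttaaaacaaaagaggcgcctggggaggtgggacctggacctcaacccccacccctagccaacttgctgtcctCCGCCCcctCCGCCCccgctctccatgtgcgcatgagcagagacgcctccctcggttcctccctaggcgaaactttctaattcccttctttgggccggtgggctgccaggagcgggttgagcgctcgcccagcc
Itgb1: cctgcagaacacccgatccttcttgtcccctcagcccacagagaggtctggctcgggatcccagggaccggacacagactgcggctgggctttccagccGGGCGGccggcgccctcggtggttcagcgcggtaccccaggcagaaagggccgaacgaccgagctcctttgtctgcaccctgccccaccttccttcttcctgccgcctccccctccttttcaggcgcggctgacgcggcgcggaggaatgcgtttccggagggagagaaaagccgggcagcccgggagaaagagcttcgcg

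The Lamb2 window, chr9:108479612-108479911, held 0 GC boxes and 0 CCAAT boxes, and 44.0% of its bases were G or C. Its annotated start lies 126 bases inside the gene as deposited. The Lamb1 window, chr12:31265043-31265342, held 2 GC boxes and 1 CCAAT box at 63.7% G or C. The Itgb1 window, chr8:128685404-128685703, held 1 GC box and 0 CCAAT boxes at 67.3%. Of all 32851 promoters in the RefSeq table, 35.7% held a GC box and 37.4% a CCAAT box. For the family, 20 genes matched with 23 promoters, of which 10 held a GC box and 3 a CCAAT box.

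Between genes, levels were compared in the deposited FPKM, which divides reads by gene length. Itgb1, the beta chain that pairs with most alpha chains, led the family at a mean of 35.1 FPKM over the 10 libraries, and was above the next gene in 10 of 10. Itga6 followed at 4.54 FPKM, then Itgb5, a partner of Itgav, at 2.91 FPKM. The most abundant laminin chains were Lamb2 at 2.38, Lamc1 at 1.82 and Lamb1 at 1.46 FPKM, and the next integrin chain was Itgb8, another partner of Itgav, at 1.34 FPKM. Several neighbours in this order were not separated: Itgb5 was above Lamb2 in 6 of 10 libraries, Lamb2 above Lamc1 in 7, and Lamb1 above Itgb8 in 6. Laminin alpha chains were lower throughout, with Lama1 at 0.510 and Lama5 at 0.470 FPKM.

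In the alpha and beta integrins and the gamma laminins, 1 gene took most of the level. Itgb1 made up 82.8% ± 6.01 of the summed FPKM of the beta integrins in the NG2 libraries and 87.7% ± 3.27 in the GFAP libraries (SD, n = 5). Itga6 made up 52.5% ± 9.96 and 57.5% ± 1.85 of the alpha integrins, and Lamc1 94.3% ± 3.83 and 95.5% ± 2.95 of the gamma laminins. The laminin beta class was shared between a pair of genes, Lamb2 at 53.9% ± 6.78 in NG2 and 65.4% ± 7.83 in GFAP libraries, and Lamb1 at 42.7% ± 5.23 and 32.8% ± 7.10. The ranges of these shares overlapped between the groups in every class. Summed FPKM of all laminin alpha chains was 0.951 ± 0.320 in NG2 and 1.43 ± 0.195 in GFAP libraries, against 3.49 ± 0.852 and 4.39 ± 0.187 for the beta chains.

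**Figure D1:**
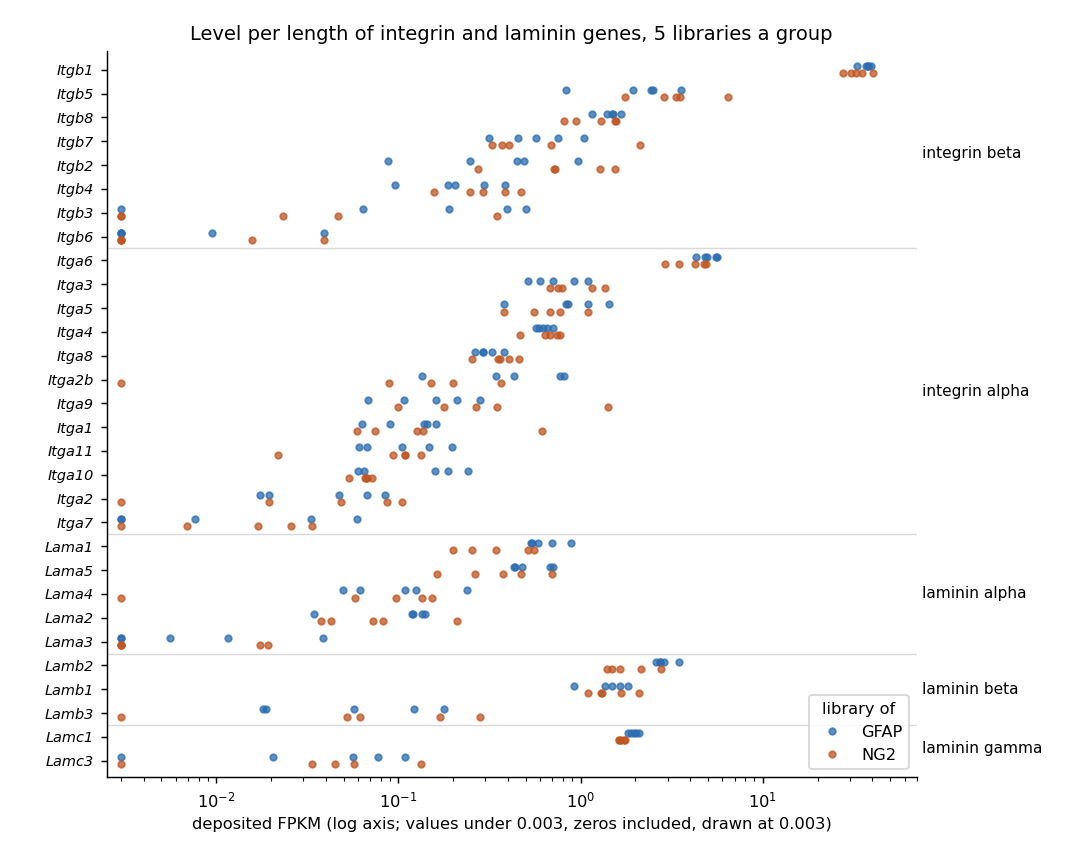
Deposited FPKM of integrin and laminin genes by class, on a log axis, with 1 point for each library (GFAP above, NG2 below for each gene). Itgb1 stands above all other genes in every library, and in each class except the laminin alpha and beta chains 1 gene lies clear of the rest by its mean.

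In the comparison of NG2 with GFAP libraries, 21 of the 31 genes had enough reads to be tested and 0 of them passed edgeR's quasi-likelihood test at a Benjamini-Hochberg adjusted p of 0.05, where 0.148% of all 16187 tested genes did. At an unadjusted p under 0.05 there were 5 of 21, against 12.8% of all tested genes: Itga9 was higher in NG2, and Itga6, Itga2b, Lama1 and Lamb2 were lower. Log2 fold changes (NG2 minus GFAP) were positive for 10 genes and negative for 11, with a median of -0.17 beside -0.01 for all tested genes. By family, 9 of 14 integrin genes were positive (median 0.26) and 6 of 7 laminin genes negative (median -0.43). In bulk RNA, fewer cells of a type and less RNA per cell cannot be told apart.

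Part of this pattern depended on library NG2 5. Without it, 6 genes were positive and 15 negative, the integrin median was -0.05, and all 7 laminin genes were negative with a median of -0.29. With 9 libraries 1 gene of the family, Lamb2, fell past the threshold, where 0.710% of 16469 tested genes passed by edgeR. DESeq2's Wald test on all 10 libraries called 0 of the 15 genes of the family to which it gave an adjusted p, beside 2.66% of 13006 genes. The linear model limma with voom and sample weights called 1, Lamb2 again, beside 8.90% of 16187 genes.

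**Figure D2:**
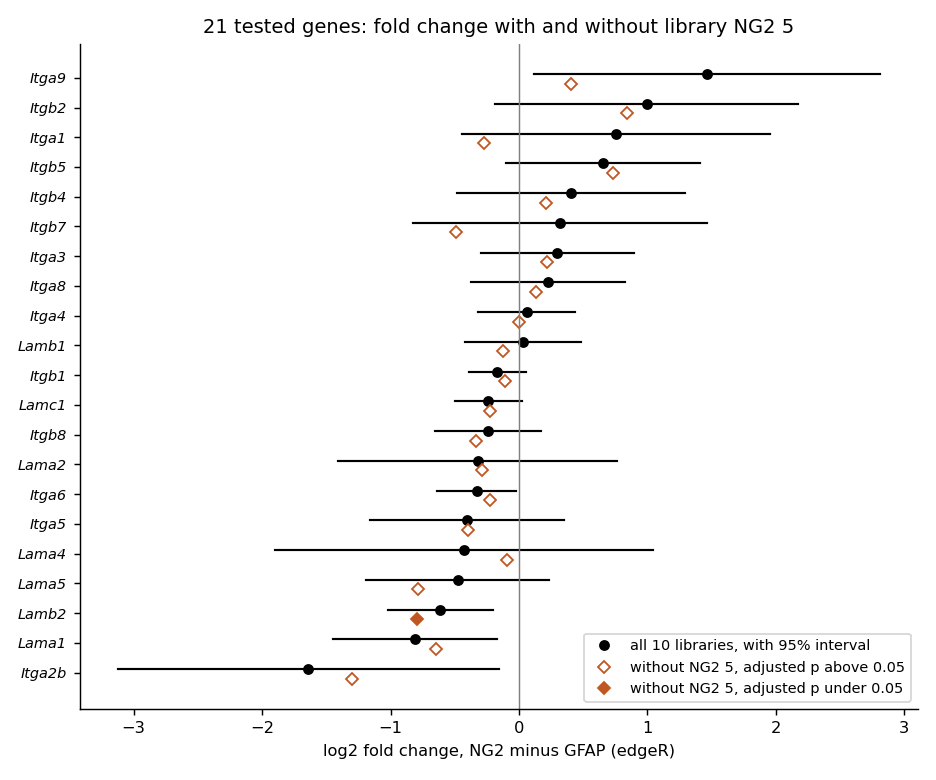
Log2 fold change of the 21 tested genes by edgeR with its 95% interval (black, all 10 libraries) and without library NG2 5 (diamonds, filled where the adjusted p is under 0.05). Itga1, Itgb7, Lamb1 and Itga4 move from the positive to the negative side when that library is left out, Lamb1 to -0.12 and Itga4 barely. The 1 filled diamond is Lamb2 at -0.79.

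Among the alpha chains that bind laminin, Itga6 (ENSMUSG00000027111, chromosome 2, 71745616 to 71858416, plus strand, GRCm38) was at 43.0, 44.1, 31.4, 38.6 and 26.4 CPM in NG2 replicates 1 to 5 and at 51.2, 44.0, 44.9, 51.1 and 39.2 CPM in GFAP replicates 1 to 5. NG2 replicates 3, 4 and 5 lay below every GFAP library, replicate 4 only narrowly, and NG2 1 and NG2 2 were inside the GFAP range. The log2 fold change was -0.33 (SE 0.14, edgeR, Benjamini-Hochberg adjusted p = 0.362), and -0.23 without NG2 5. Itga3, a second laminin receptor chain of migrating neurons and radial glia, was at 7.78, 4.54, 3.89, 4.33 and 6.71 CPM in NG2 libraries, against 4.09, 2.95, 5.31, 6.37 and 3.47 CPM in GFAP libraries. These ranges overlap broadly (log2 fold change 0.30, SE 0.28, edgeR adjusted p = 0.696). Itga7, a laminin receptor chain of muscle, had 10 reads in the NG2 and 13 in the GFAP libraries and was not tested.

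Alpha chains that bind collagen were scarce. Itga1 (chromosome 13, minus strand) was at 2.52, 1.10, 1.39, 2.38 and 11.5 CPM in the NG2 libraries and between 1.19 and 3.04 CPM in the GFAP libraries. Its log2 fold change of 0.76 (SE 0.56, edgeR adjusted p = 0.615) turned to -0.27 without NG2 5, the library at 11.5 CPM. Itga1 overlaps Pelo, a gene on the same strand, so some of its reads may be of uncertain origin. Itga2, Itga10 and Itga11 stayed under the filter, with 26 to 36 reads a gene in the NG2 and 25 to 56 in the GFAP libraries.

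Of the alpha chains that bind fibronectin and other ligands with an RGD motif, Itga5, the main fibronectin receptor chain, was at 3.82, 2.75, 1.88, 5.46 and 3.38 CPM in the NG2 libraries. In the GFAP libraries it was at 5.55, 7.10, 4.25, 1.89 and 4.15 CPM, and the groups overlap over nearly their whole range (log2 fold change -0.41, SE 0.35, edgeR adjusted p = 0.673). Itga8, which binds nephronectin, ranged from 1.88 to 3.44 CPM in NG2 libraries, against 1.97 to 2.83 CPM in GFAP libraries. Itga4, a receptor chain for fibronectin and Vcam1, was at 6.59 to 10.9 and 8.04 to 9.94 CPM (log2 fold change 0.06, SE 0.18). It overlaps Cerkl on the opposite strand.

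Itga9, a receptor chain for tenascin and osteopontin, was at 2.66, 1.38, 0.765, 2.07 and 11.0 CPM in the NG2 libraries and at 2.20, 1.26, 0.531, 0.840 and 1.63 CPM in the GFAP libraries. Only NG2 replicates 1 and 5 exceeded the highest GFAP library. The log2 fold change of 1.47 (SE 0.63, edgeR adjusted p = 0.351) was 0.41 without NG2 5, and the gene overlaps the pseudogene Gm10157 and the antisense gene Gm2415. Itga2b, the alpha chain of the platelet fibrinogen receptor, was at 1.09, 0.826, 0.487, 2.01 and 0 CPM in NG2 libraries, against 4.27, 2.39, 1.90, 4.48 and 0.749 CPM in GFAP libraries. GFAP 5 and NG2 4 keep the groups from separating, and the 0 reads in NG2 5 allow up to 0.169 CPM, the level of 3 reads. Its log2 fold change was -1.64 (SE 0.69, edgeR adjusted p = 0.347). Summed over 6 genes, markers of megakaryocytes and platelets reached 3.44 to 14.3 CPM in NG2 libraries, against 3.27 to 16.5 CPM in GFAP libraries. The sum was lowest in GFAP 5, where Itga2b was lowest of its group. In NG2 5, where Itga2b had 0 reads, the sum was the highest of the NG2 libraries at 14.3 CPM. The part of these markers in the result was not tested.

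Among the beta chains, Itgb1 (ENSMUSG00000025809, chromosome 8, 128685654 to 128733200, plus strand) was at 143, 165, 134, 126 and 114 CPM in the NG2 libraries and at 154, 163, 136, 156 and 157 CPM in the GFAP libraries. The highest library of all was NG2 2, and NG2 4 and NG2 5 were the lowest. The log2 fold change was -0.17 (95% interval -0.39 to 0.05, edgeR adjusted p = 0.532), and its SE of 0.10 was the smallest of the 21 tested genes. Itgb8, a chain that radial glia use with Itgav to activate latent TGF-beta, was at 17.3, 8.95, 10.5, 14.4 and 17.2 CPM in NG2 libraries, against 13.0, 18.7, 16.8, 15.7 and 16.8 CPM in GFAP libraries. Its low values were those of NG2 2 and NG2 3 (log2 fold change -0.24, SE 0.19, edgeR adjusted p = 0.636).

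Itgb5, which pairs with Itgav to bind vitronectin, was at 21.8, 11.8, 5.91, 11.3 and 9.75 CPM in the NG2 libraries and at 8.54, 8.23, 6.60, 12.1 and 2.86 CPM in the GFAP libraries. NG2 1 had the highest and GFAP 5 the lowest value, and without NG2 1 the log2 fold change of 0.66 (SE 0.35, edgeR adjusted p = 0.458) became 0.34. Itgb2, the beta chain of leukocyte integrins, was at 4.71, 2.20, 0.835, 2.20 and 3.94 CPM in NG2 libraries, against 1.52, 1.38, 0.759, 3.01 and 0.272 CPM in GFAP libraries (log2 fold change 1.00, SE 0.55, edgeR adjusted p = 0.471). Beside both genes, 11 markers of microglia and macrophages summed to 28.9 to 378 CPM in NG2 libraries, against 44.5 to 170 CPM in GFAP libraries. That sum was highest in NG2 1, lowest in NG2 3 and lowest among the GFAP libraries in GFAP 5. In NG2 5 the sum was 186 CPM, with Itgb2 at 3.94 CPM but Itgb5 at 9.75 CPM, under NG2 1, 2 and 4. Of the markers, 10 of 10 tested genes had a positive fold change, beside 7844 of all 16187 tested genes. Of these 10, 0 had an unadjusted edgeR p under 0.05. None of the 11 markers was at 0 in all libraries, and their part in these differences was not tested.

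Itgb7, a lymphocyte chain that pairs with Itga4 or Itgae, was at 1.91, 1.03, 0.904, 1.13 and 5.92 CPM in NG2 libraries, against 0.879 to 2.94 CPM in GFAP libraries, and its log2 fold change of 0.32 (SE 0.53) became -0.49 without NG2 5. Itgb4, the hemidesmosome partner of Itga6, ranged from 1.10 to 3.32 CPM in NG2 libraries, against 0.681 to 2.73 CPM in GFAP libraries. Itgb3, the platelet partner of Itga2b, had 39 reads in the NG2 and 105 in the GFAP libraries, and Itgb6 had 6 and 5. Neither was tested. Itgav, which the choice by symbol leaves out but which pairs with Itgb5 and Itgb8, was at 8.73, 6.20, 6.05, 8.66 and 26.5 CPM in NG2 libraries, against 10.4 to 13.4 CPM in GFAP libraries. NG2 replicates 1 to 4 lay below all GFAP libraries and NG2 5 above them, so its log2 fold change of -0.05 (SE 0.34) was -0.65 without NG2 5 (SE 0.18, edgeR adjusted p = 0.0917).

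**Figure D3:**
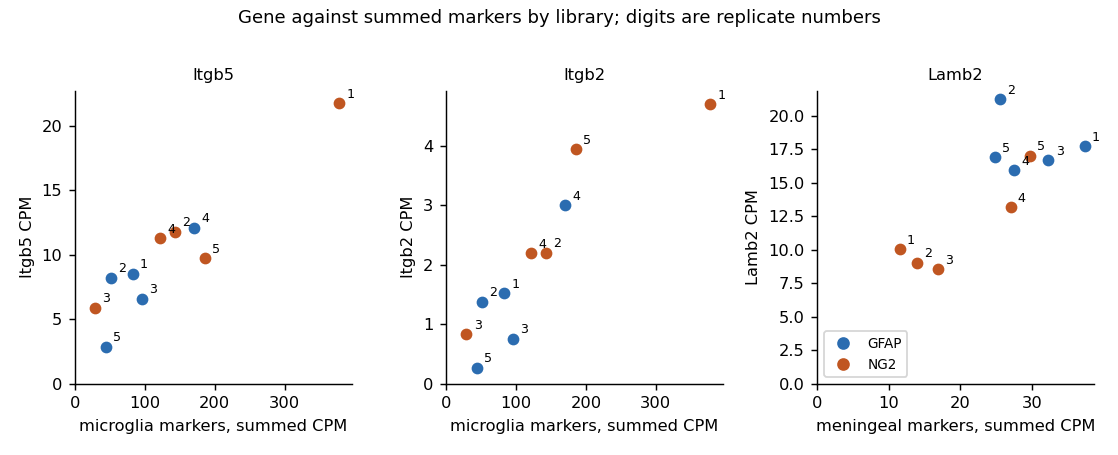
CPM of Itgb5 and Itgb2 against the summed CPM of 11 microglia and macrophage markers, and of Lamb2 against the summed CPM of 10 meningeal fibroblast markers, with 1 point for each library. NG2 1 is highest in both axes of the first pair of panels (378 CPM of markers), and in the Lamb2 panel NG2 replicates 1, 2 and 3 are low in both axes.

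The laminin beta chain Lamb2 (ENSMUSG00000052911, chromosome 9, 108479736 to 108490530, plus strand), which occurs in basement membranes of the nervous system, vessels, kidney and muscle, was at 10.0, 9.02, 8.55, 13.2 and 17.0 CPM in the NG2 libraries. In the GFAP libraries it was at 17.7, 21.2, 16.7, 16.0 and 16.9 CPM. NG2 replicates 1 to 4 lay below every GFAP library, and NG2 5 lay inside the GFAP range. Means were 11.6 ± 3.54 and 17.7 ± 2.07 CPM, 1.53-fold lower in NG2 (log2 fold change -0.61, SE 0.19, 95% interval -1.02 to -0.20, edgeR Benjamini-Hochberg adjusted p = 0.231). Without NG2 5, Lamb2 fell by 0.79 on the log2 scale (SE 0.16, edgeR adjusted p = 0.0382), and by voom with sample weights it fell by 0.48 (SE 0.12, adjusted p = 0.0286). DESeq2 gave -0.60 with an adjusted p of 0.0697, and no other gene overlaps Lamb2 in the deposited coordinates.

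Lamb1, the beta chain of the earliest embryonic laminins, was at 10.8, 16.5, 12.8, 13.1 and 20.9 CPM in NG2 libraries, against 18.3, 9.17, 14.9, 16.6 and 13.8 CPM in GFAP libraries. The groups overlap over most of their range (log2 fold change 0.03, SE 0.21, edgeR adjusted p = 0.970). In each library the log2 ratio of Lamb1 to Lamb2 in FPKM gives the balance of the beta chains; it averaged -0.33 ± 0.36 in NG2 and -1.02 ± 0.52 in GFAP libraries (SD, n = 5), with ranges of -0.71 to 0.17 and -1.92 to -0.65 that overlap. Lamb3, a chain of epithelial laminin, had 56 and 38 reads and was not tested.

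Lamc1 (ENSMUSG00000026478, chromosome 1, 153218922 to 153332786, minus strand), the gamma chain of most laminins, was at 14.3, 13.9, 13.5, 14.6 and 13.5 CPM in the NG2 libraries and at 17.7, 16.5, 16.9, 15.9 and 15.4 CPM in the GFAP libraries. It was the 1 gene of the 21 whose groups did not overlap, beside 3.28% of all tested genes, with a coefficient of variation of 3.45% in NG2 and 5.43% in GFAP libraries. The difference was small, 1.18-fold lower in NG2 (log2 fold change -0.24, SE 0.12, edgeR adjusted p = 0.433), and did not pass. Lamc1 overlaps Gm38009 on the same strand, with 99 reads, and the pseudogene Gm8818 on the other, so a part of its reads may be of uncertain origin. Lamc3 had 25 reads in each group and was not tested.

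Among the alpha chains, Lama1, an early chain of the pial basement membrane, was at 4.91, 2.41, 3.27, 5.33 and 1.92 CPM in NG2 libraries, against 5.24, 8.48, 5.62, 6.72 and 5.17 CPM in GFAP libraries. NG2 4 alone reached into the GFAP range. Its log2 fold change was -0.81 (SE 0.30, 95% interval -1.45 to -0.17, edgeR adjusted p = 0.296). Lama5, a widespread chain of later basement membranes, was at 5.39, 1.86, 2.99, 4.33 and 8.00 CPM in NG2 libraries, against 5.55, 4.96, 7.82, 8.19 and 5.04 CPM in GFAP libraries. NG2 2, NG2 3 and NG2 4 lay below the GFAP range, and the log2 fold change of -0.48 (SE 0.33, edgeR adjusted p = 0.590) was -0.78 without NG2 5.

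Lama4, a chain of vessel basement membranes, had 80 reads in the NG2 and 108 in the GFAP libraries (log2 fold change -0.43, SE 0.69), with 0 reads in NG2 5, and its log2 fold change was -0.0920 without that library. Lama2, a chain of muscle and glial basement membranes, was at 3.41, 0.620, 0.695, 1.19 and 1.35 CPM in NG2 libraries, against 2.01, 0.565, 1.97, 2.31 and 2.25 CPM in GFAP libraries (log2 fold change -0.32, SE 0.51, edgeR adjusted p = 0.836). NG2 1 and GFAP 2 were the extremes. Lama3, of epithelial laminin, had 6 and 9 reads.

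Laminin is made by meningeal and vascular cells as well as by neural cells, so their markers stand beside these values. The 10 meningeal fibroblast markers summed to 11.5, 13.9, 16.9, 27.0 and 29.8 CPM in the NG2 libraries and to 37.4, 25.5, 32.3, 27.5 and 24.8 CPM in the GFAP libraries. Of the 8 tested, 7 had a negative fold change (median -0.66), beside 8343 of all 16187 tested genes. The library NG2 5, which had the highest Lamb2 of its group, also had the highest sum of these markers in its group, and NG2 1, 2 and 3 were low in both. In NG2 5 the sum came largely from Col3a1 (13.1 CPM), Crabp2 (8.96 CPM) and Pdgfra (4.90 CPM), while Col1a1, Col1a2, Foxc1 and Twist1 were at 0 and Lum was lowest of its group. Crabp2 was a large part of the sum elsewhere too, at 6.69 to 9.78 CPM over the NG2 libraries and 8.44 to 14.3 CPM over the GFAP libraries. Endothelial markers summed to 8.79 to 33.9 CPM in NG2 libraries, against 8.71 to 37.9 CPM in GFAP libraries, and mural markers to 10.7 to 28.7 and 16.6 to 29.2 CPM. Notch3 was a large part of the mural sum, at 3.79 to 18.9 CPM over the NG2 libraries and 11.1 to 16.9 CPM over the GFAP libraries. In NG2 5 the mural sum was 27.0 CPM, with reads for 3 of the 8 markers. No listed marker of these 3 cell types was at 0 in all libraries. In NG2 5, 5 of the 10 endothelial genes had reads, while Cdh5, Tek, Tie1, Pecam1 and Cldn5 were at 0. Egfl7 was at 6.65 CPM there, and Emcn at 1.69 CPM was the highest of the NG2 libraries. Radial glia markers were also lower in NG2, with 10 of 10 negative and a median of -0.37. The part of any of these in the laminin values was not tested.

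**Figure D4:**
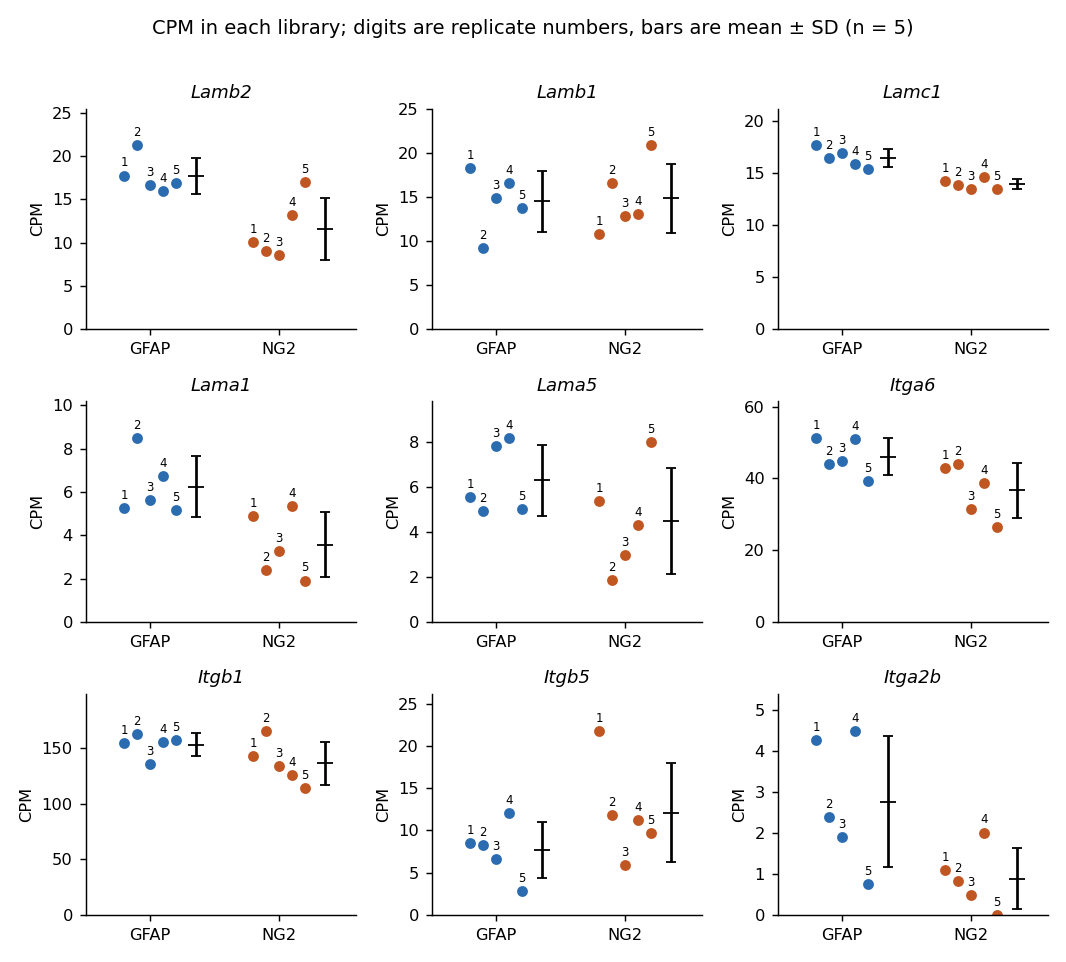
CPM of 9 genes in each library, with replicate numbers and the mean ± SD of 5 libraries. Lamc1 separates the groups with little spread (13.5 to 14.6 against 15.4 to 17.7 CPM), Lamb2 separates them except for NG2 5, and Lamb1 does not.

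Libraries differed in how often they held the extreme value of a gene. NG2 5 had the highest CPM of 7 and the lowest of 5 of the 21 tested genes, 12 in all, and GFAP 2 followed with 8. Its high genes were Itga1, Itga4, Itga8, Itga9, Itgb4, Itgb7 and Lamb1, and its low genes were Itgb1, Itga6, Lama1 and the undetected Itga2b and Lama4. Integrin genes and laminin genes were thus each found on both sides, as the plot of deviations by library shows.

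**Figure D5:**
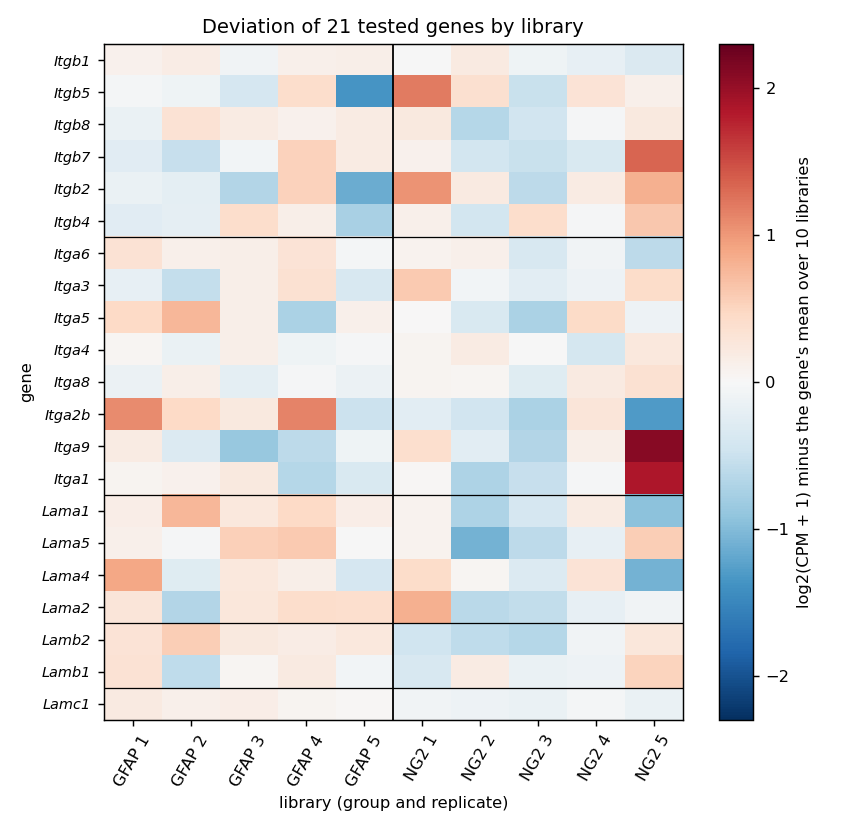
Deviation of log2(CPM + 1) from the mean of all 10 libraries, for the 21 tested genes, grouped by class (rows) and by library (columns, GFAP left of the line). NG2 5 holds the highest deviations, for Itga9 and Itga1, and is low for Itga2b and Lama4, while the lowest deviation is Itgb5 in GFAP 5.

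The same comparison was made for genes that work with integrins and laminins. Of 81 such genes found in the table, 71 were tested and 0 passed by edgeR, 30 with a positive and 41 with a negative fold change (median -0.07). At an unadjusted p under 0.05, 3 were higher and 14 lower, beside 12.8% of all tested genes. The groups did not overlap for 1 higher and 1 lower gene of the 71, Fn1 and Tns1, beside 3.28% of all tested genes. DESeq2 called 1, beside 2.66% of all genes it tested, and voom with sample weights called 9, beside 8.90%.

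Of the partners of laminin in the basement membrane, 0 of 10 tested genes passed by edgeR. The fold change was negative for 8, beside 8343 of all 16187 tested genes, with a median of -0.32, and 5 of the 10 had an unadjusted p under 0.05, beside 12.8% of all tested genes. Col18a1, a collagen with heparan sulfate chains that yields endostatin, was at 5.53, 8.06, 5.35, 10.6 and 1.58 CPM in NG2 libraries, against 18.6, 19.8, 18.6, 18.3 and 8.99 CPM in GFAP libraries. NG2 4 lay above GFAP 5 and otherwise the groups were apart. Its log2 fold change was -1.44 (SE 0.36, edgeR adjusted p = 0.139), and it was the 1 gene called by DESeq2 (-1.43, adjusted p = 0.00545). Without NG2 5, Col18a1 fell by 1.18 (SE 0.25, edgeR adjusted p = 0.0435). Agrn, the proteoglycan agrin that links laminin to dystroglycan, was at 132 ± 17.0 CPM in NG2 libraries, against 158 ± 22.8 CPM in GFAP libraries. For Col4a5, a network collagen, the log2 fold change was -0.97 (SE 0.34). Ntn4, a netrin that binds laminin gamma chains, had -0.37 (SE 0.17), and the matrix protein Sparc -0.11 (SE 0.15).

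Other matrix ligands of integrins were mixed, with 6 of 14 positive. Fn1, fibronectin, was at 47.3, 45.1, 44.2, 44.4 and 45.3 CPM in NG2 libraries, against 40.2, 35.8, 41.3, 42.6 and 41.5 CPM in GFAP libraries. Its groups did not overlap, with NG2 above GFAP, beside 3.28% of all tested genes without overlap. The log2 fold change of Fn1 was 0.17 (SE 0.09, edgeR adjusted p = 0.471). Spp1, osteopontin, which macrophages also make, was at 23.7 ± 17.3 and 10.1 ± 3.65 CPM (log2 fold change 1.24, SE 0.46, edgeR adjusted p = 0.295). Thbs1, thrombospondin, which platelets also carry, was at 4.13 ± 2.63 and 9.26 ± 2.50 CPM (log2 fold change -1.17, SE 0.40, edgeR adjusted p = 0.272). Mfge8, a ligand of Itgav with Itgb5 or Itgb3, was the ligand with the highest level at a mean of 20.2 FPKM, with a log2 fold change of -0.10 (SE 0.12), and Tnc, tenascin-C, had 0.51 (SE 0.30). NG2 5 was the highest library for Tnc at 47.3 CPM, and without it the log2 fold change was 0.17.

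Adaptors and activators of integrins inside the cell were evenly split, with 12 of 24 positive and a median of -0.01. Tns1 and Tns3, tensins that link beta chains to actin, had the smallest p of this list. Tns1 was at 11.4, 7.16, 6.33, 12.8 and 12.6 CPM in NG2 libraries, against 14.2 to 18.1 CPM in GFAP libraries. Its groups did not overlap, beside 3.28% of all tested genes (log2 fold change -0.63, SE 0.20, edgeR adjusted p = 0.242). Tns3 had -0.91 (SE 0.29, edgeR adjusted p = 0.236). The kinase Fyn (0.20, SE 0.09), the docking protein Bcar1 (-0.02, SE 0.13), the adaptor Crk (0.08, SE 0.12) and the small GTPase Rap1b (0.16, SE 0.14) had the highest levels.

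Dystroglycan, encoded by Dag1, is the main laminin receptor outside the integrin family, and stood at 10.1 ± 3.01 FPKM in NG2 and 8.98 ± 1.01 FPKM in GFAP libraries, above every integrin chain except Itgb1 by its mean. The log2 fold change of Dag1 was 0.16 (SE 0.17, edgeR adjusted p = 0.734). Of 10 tested genes of dystroglycan and other laminin receptors, 7 were negative. These include dystrophin, Dmd, at -0.41 (SE 0.18, edgeR adjusted p = 0.356) and the syndecan Sdc1 at -0.07 (SE 0.15), while Sdc3, another syndecan, had 0.34 (SE 0.14) and Rpsa, a ribosomal protein also described as a laminin receptor, 0.02 (SE 0.13). Enzymes that build the laminin-binding sugar of dystroglycan had 8 of 12 positive fold changes. Among them were Pomgnt2 (0.27, SE 0.11, edgeR adjusted p = 0.346), Pomk (0.20, SE 0.13), B4gat1 (0.13, SE 0.14) and Pomgnt1 (0.05, SE 0.13), while B3galnt2 had -0.29 (SE 0.11, edgeR adjusted p = 0.313). The 3 other integrin genes tested were Itgav, given above, Itgam (0.31, SE 0.80) and Itgae (-0.55, SE 0.44).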

How the data were processed

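The deposited table holds whole-number read counts for each gene in 10 libraries, not normalised, and FPKM, which the authors give beside them; per the file headers it also holds a mean signal for each group, a log2 fold change, a p-value and an adjusted p. Of the 31 genes, 0 had an adjusted p under 0.05 in the authors' deposited table. The submitters' processing notes name HISAT2, featureCounts 1.5.0-p3 and GRCm38.p6. The annotation release, the strand setting and the handling of multimapping reads were not given in the sources used here. Overlaps were taken from gene start to gene end, introns included, and exons were not compared. Reads of genes that overlap another may therefore be uncertain. Per the labels' protocols, RNA was amplified with SMARTer chemistry; no molecular identifiers are mentioned, so floors cover counting error only.

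Counts were tested with edgeR 4.0.16 (R 4.3.3): TMM scaling, its default expression filter, the quasi-likelihood test, Benjamini-Hochberg adjustment over all 16187 tested genes, and a threshold of 0.05. Alternatives were DESeq2 1.42.0, voom and limma-trend (limma 3.58.1) on log2 values, other scalings and filters, a replicate block, and each library left out. The removal of NG2 5 with GFAP 2 was added after seeing the data. Scripts were tested on simulated data.

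Integrin and laminin genes and all lists were chosen with earlier results of these data known. Library values are given for genes past a threshold, without overlap, with an unadjusted p under 0.05, or among the 3 of highest FPKM in their class; from each list, the genes of highest FPKM or smallest p. Values given for other genes were chosen after they were seen. Values of some genes are not reported here.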

Additional observations from a re-analysis of the deposited data

Results flagged for a closer look

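In each group of 5 libraries, the CPM of the 21 tested integrin and laminin genes was examined for a library whose gap to its nearest neighbour took more than 0.71 of the group's range. For independent values from a normal distribution, chance gives this in about 1 in 20 groups. Here 5 of 42 groups had it. CPM need not follow that distribution and the 42 groups come from the same 10 libraries, so the rate is only a guide. NG2 5 was the high library for 3 genes. For Itga1 it was at 11.5 CPM, with the other NG2 libraries between 1.10 and 2.52 CPM. For Itga9 it was at 11.0 CPM, against 0.765 to 2.66 CPM. For Itgb7 it was at 5.92 CPM, against 0.904 to 1.91 CPM. Lama2 had an extreme library in each group: NG2 1 at 3.41 CPM above 0.620 to 1.35 CPM, and GFAP 2 at 0.565 CPM below 1.97 to 2.31 CPM. The cause was not tested for any of them.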

How the results depend on the processing

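By edgeR with all libraries 24 genes passed, 0 of them in the integrin and laminin family and 0 among the 71 tested genes of the other lists. The number of genes that passed was 95 without an expression filter, 346 by DESeq2, 1441 by voom with sample weights, 12 by limma-trend on FPKM with a pseudocount of 1 and 12 with 0.1, 3 to 117 with 1 library left out (117 without NG2 5), and 263 without NG2 5 and GFAP 2 together. In the family it was 1 by voom, 0 to 1 with 1 library left out and 1 without NG2 5 and GFAP 2, and that gene was Lamb2 each time (log2 fold change -0.72, SE 0.16, edgeR adjusted p = 0.0384 in the last). Over all 21 alternatives Lamb2 stayed negative, from -0.79 to -0.44, with an adjusted p of 0.0286 to 0.429. In the other lists the number was 1 without a filter, 1 by DESeq2, 9 by voom, 0 to 1 with 1 library left out and 2 (Col18a1 and Reln) without NG2 5 and GFAP 2.

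With the replicate number as a block, 1 gene passed, 0 of them in the family, and Itgam turned to -0.20. In their deviations from the group means, same-numbered libraries correlated at 0.04, 0.08, 0.06, -0.00 and -0.09. No NG2 library correlated best with the GFAP library of its own number. Of the GFAP libraries only GFAP 2 correlated best with its own number in NG2. Such correlations cannot exclude that same-numbered libraries shared a litter, which the labels do not say.

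The sign of some log2 fold changes turned. By library size alone Lamb1 was -0.0172, Rpsa -0.0252 and Pomgnt1 -0.00222. By voom Itga3 was -0.0105, Itga4 -0.31, Itga5 0.30, Itgb7 -0.56, Lamb1 -0.25, Itgam -0.0729, Itgae 0.0329, Sparc 0.0362 and Sdc1 0.18. Without NG2 5 and GFAP 2, Itga1 was -0.20, Itga4 -0.0405, Itgb7 -0.66, Lamb1 -0.25, Dag1 -0.00365 and Sdc1 0.0532. With 1 library left out, the ranges that crossed 0 among the genes given were -0.27 to 1.00 for Itga1 and -0.49 to 0.59 for Itgb7 (both negative only without NG2 5), -0.0031 to 0.16 for Itga4, -0.71 to 0.0185 for Lama4, -0.12 to 0.13 for Lamb1, -0.65 to 0.11 for Itgav, -0.49 to 0.78 for Itgam, -0.13 to 0.0492 for Bcar1, -0.0127 to 0.16 for Crk, -0.0212 to 0.27 for Dag1, -0.14 to 0.0641 for Sdc1, -0.0480 to 0.10 for Rpsa and -0.0592 to 0.15 for Pomgnt1. The cause was not tested. The 10 genes under the filter had few reads; 0 of them passed where an alternative fitted them.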
